A study of Mus musculus with 8 samples.

Results

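The genes of MHC class I presentation and the immunoproteasome followed here were 10 of the 17921 genes in the count table: H2-K1, H2-D1, B2m, Tap1, Tap2, Tapbp, Psmb8, Psmb9, Psmb10 and Nlrc5. They were chosen as a named list of class I antigen presentation and immunoproteasome genes, and each was summed over the cells of a mouse in all 11 cell types and all 11 structural clusters that the authors named. Single cells came from orthotopic left lung grafts taken 1 month after transplantation (LTx) from male mice that received no immunosuppression, with 10000 cells loaded per graft for 10x Genomics sequencing of transcript 3′ ends. In the B6→B6 group (5 mice) donor and recipient were C57BL/6 (B6), and in the HLA→B6 group (3 mice) a B6 recipient took the graft of a C57BL/6 donor that carried the transgene Tg(HLA-A2.1)1Enge. The transgene encodes a human HLA-A2 molecule, a class I heavy chain of the same family as H2-K1 and H2-D1. The table is of mouse genes and has 0 gene names that start with HLA, so the transgene was not measured, and nothing in the table tells donor from recipient cells.

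MHC class I molecules show peptides cut from a cell's own proteins to CD8 T cells. The proteasome cuts the proteins, the TAP transporter moves the peptides into the endoplasmic reticulum, and tapasin helps to load them onto a heavy chain that is paired with β2-microglobulin. Interferon-γ raises this machinery in most cell types, in part through the regulator NLRC5, and leads to the exchange of the catalytic subunits of the proteasome for the immunoproteasome set.

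In the GENCODE annotation of GRCm38, 7 of the 10 members lie on chromosome 17, in or beside the MHC. H2-K1, a classical heavy chain, is at chr17:33996017-34000347 on the minus strand, and H2-D1, the other classical heavy chain of B6 mice, is at chr17:35262730-35267499 on the plus strand. Psmb9 (chr17:34181987-34187764, minus), Tap1 (chr17:34187553-34197225, plus), Psmb8 (chr17:34197721-34201454, plus) and Tap2 (chr17:34203527-34216321, plus) follow each other. Tapbp, the gene of tapasin, is at chr17:33915899-33929292 on the plus strand. B2m is at chr2:122147686-122153083 (plus), Nlrc5 at chr8:94434356-94527272 (plus) and Psmb10 at chr8:105935735-105938444 (minus).

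The 250 bases before the RefSeq transcript start (GRCm38.p6) are shown for the 4 members whose level rose in alveolar macrophages (below). Whether these bases have a part in that rise was not tested. Of the 10 members, 8 had such a window in the table used. Capitals mark TGACG and GATTGG on either strand (CGTCA and CCAATC when read on the other strand), letters found in the site α and Y box elements of MHC promoters, and 2 copies of GAAA with 2 bases between them, a form of the interferon-stimulated element. The windows are chr17:34000334-34000583 on the minus strand for H2-K1, chr17:35262844-35263093 on the plus strand for H2-D1, chr2:122147437-122147686 on the plus strand for B2m, and chr17:34187306-34187555 on the plus strand for Tap1.
H2-K1: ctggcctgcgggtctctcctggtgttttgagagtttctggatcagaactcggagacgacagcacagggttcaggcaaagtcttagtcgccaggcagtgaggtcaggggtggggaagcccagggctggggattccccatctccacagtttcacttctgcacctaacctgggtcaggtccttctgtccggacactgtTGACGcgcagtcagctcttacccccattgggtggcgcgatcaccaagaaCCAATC
H2-D1: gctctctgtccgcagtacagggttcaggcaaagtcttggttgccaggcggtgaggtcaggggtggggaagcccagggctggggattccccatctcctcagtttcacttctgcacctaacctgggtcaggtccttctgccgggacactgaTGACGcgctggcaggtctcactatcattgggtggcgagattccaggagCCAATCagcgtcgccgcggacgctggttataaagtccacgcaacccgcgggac
B2m: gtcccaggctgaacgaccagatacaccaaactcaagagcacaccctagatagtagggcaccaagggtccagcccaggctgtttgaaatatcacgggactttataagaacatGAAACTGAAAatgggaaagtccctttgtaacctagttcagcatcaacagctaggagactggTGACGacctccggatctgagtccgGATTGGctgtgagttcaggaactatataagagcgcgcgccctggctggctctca
Tap1: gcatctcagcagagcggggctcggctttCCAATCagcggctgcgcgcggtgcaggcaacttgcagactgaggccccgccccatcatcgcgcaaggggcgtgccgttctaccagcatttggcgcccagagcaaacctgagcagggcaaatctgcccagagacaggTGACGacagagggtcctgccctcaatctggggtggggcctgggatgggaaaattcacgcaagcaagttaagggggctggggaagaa

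TGACG was found in 17.8% of 32851 windows of this length, GATTGG in 14.6%, and both in 3.11%. Both were found in a window of 5 of the 8 members (H2-K1, H2-D1, B2m, Tap1 and Psmb9). H2-K1 had 2 windows in the table, and the one shown is the one that holds both, with CCAATC as its last bases, while the other (chr17:34000348-34000597, minus strand) holds TGACG alone. The windows of Tap1 and Psmb9 share 225 bases on opposite strands, so they are not separate cases. The pair of GAAA copies, on either strand, was found in 2.98% of windows and, among the members, in that of B2m. In H2-K1 and H2-D1 the 2 motifs stood 44 and 43 bases apart, and 169 of 204 bases aligned without gaps at TGACG were identical (82.8%). A match of letters is a description and not a measured binding site. Letters were marked wherever they fell, so a mark need not lie in a site α or Y box element. Between the marks of H2-K1 and H2-D1 stands cattgg, which differs from GATTGG in its first base and is not marked. The CCAATC of Tap1 stands before its TGACG.

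The libraries held 868 to 6544 cells and 1669076 to 12445769 UMIs, so the mice differ 7-fold in depth, and a member at a few CPM was counted in single digits in the smaller ones. Levels of genes are given as CPM after TMM scaling, that is per 1000000 UMIs of the genes that passed the filter on low counts in those cells, unless said otherwise, so they lie above CPM of all UMIs in the smaller clusters. Summed marker levels are in CPM of all UMIs. A mouse entered a comparison with at least 10 cells. Differences were tested with edgeR's quasi-likelihood test across all genes that passed its filter on low counts, with an adjusted p under 0.05 as the threshold. Cell barcodes were shared between libraries (160 between B6→B6 replicate 2 and HLA→B6 replicate 2, and 112 between B6→B6 replicates 1 and 2), and values without the 793 cells in doubt are given where a member's call changed. In 3 places a library or a label stood apart. All 954 cells of T cell cluster 7 came from B6→B6 replicate 4 and carried Rag1 and Dntt, genes of immature lymphocytes, at 738 and 955 CPM of all UMIs. The cells labelled alveolar macrophages had a summed level of the resident markers Chil3, Marco, Siglecf and Ear2 of 8321 to 10493 CPM in B6→B6, but only of 3373, 296 and 4099 in the HLA→B6 mice, the middle value being that of replicate 2. Structural clusters 1, 2 and 7 are labelled epithelial, yet in clusters 1 and 2 the endothelial markers Pecam1, Cdh5, Cldn5 and Tmem100 summed to 4707 to 14650 CPM, and Epcam and Cdh1 to at most 40.8.

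In grafts without the transgene each member differed in level between cell types. Over the B6→B6 mice, and in CPM of all UMIs without TMM, H2-K1 was highest in structural cluster 0 (MHC II+ endothelial cells by label; mean 2855, range 1989 to 4197) and in natural killer cells (2456, range 2184 to 2762), whose ranges overlap. It was lowest in the cells labelled leukocytes (403, range 250 to 574), which carried neutrophil genes, and in cluster 4 (red blood cells by label; 117, range 0 to 286). B2m was highest in cluster 2 (7768, range 5901 to 9126) and monocytes (6811, range 6082 to 7678), and H2-D1 in clusters 2 and 0 (7459 and 6419), again with overlapping ranges. Among the types and clusters with at least 3 B6→B6 mice, cluster 4 was the lowest for each member but Psmb10, which was lower in leukocytes, and Nlrc5 was at 0 in clusters 4 and 7.

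**Figure D1:**
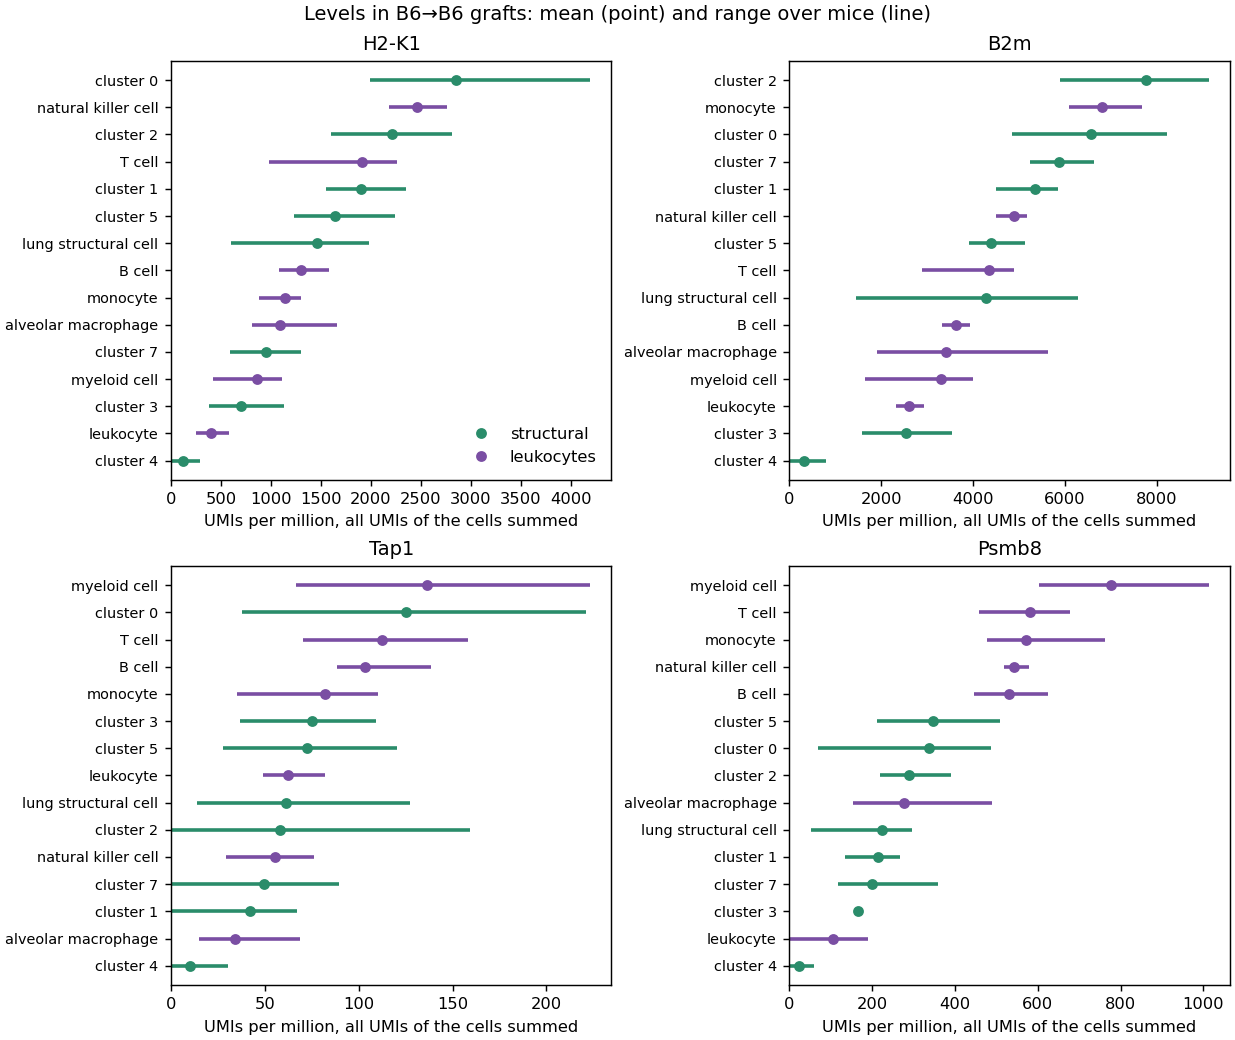
Mean level (points) and range over mice (lines) of H2-K1, B2m, Tap1 and Psmb8 in B6→B6 grafts, as CPM of all UMIs (x axis), in each cell type and structural cluster (y axis) with at least 3 mice, with structural cells in green and leukocytes in purple. H2-K1 was highest in structural cluster 0 (2855) and natural killer cells (2456), and Psmb8 in myeloid cells (777).

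The processing genes followed another order. Psmb8, the β5i subunit of the immunoproteasome, was highest in myeloid cells (777, range 602 to 1013) and next in T cells, monocytes, natural killer cells and B cells (531 to 581), which overlap each other. In structural cluster 5, the highest of the structural clusters, its mean was 348 (range 211 to 509). Tap1, a subunit of the peptide transporter, was highest in myeloid cells (137) and cluster 0 (125), and low in alveolar macrophages (34.2). Nlrc5 had a mean of 28.8 or less in each type and cluster. Across 21 cell types and clusters the Spearman correlation of the mean levels, as a description, was 0.72 between Tap1 and Psmb9 and 0.24 between H2-K1 and Psmb8. These points share libraries, and the structural cells stand in them both whole and by cluster. The genes most like H2-K1 in this order, of 6172 genes, were H2-Q7 (0.90), Dad1 (0.89), Ddrgk1 (0.88), St6galnac4 (0.85) and Clpx (0.85). Among those most like Tap1 were Srrt (0.76), Tomm40 (0.75), Tia1 (0.75) and Mndal (0.75), and those most like Psmb8 were Nudt21 (0.88), Snrpf (0.86), Rpf1 (0.86), Rpl5 (0.84) and Nubp1 (0.84).

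The comparison of the groups asks whether the machinery of class I presentation differed in grafts from transgenic donors, and in which cells. Of the 70 pairs of member and cell type that passed the filter, 65 were on average higher in HLA→B6 and 4 passed the test, all in alveolar macrophages. Of the 45 pairs of member and structural cluster, 44 were higher and 6 passed, in clusters 0, 1, 2 and 5. In cluster 4 the 3 tested members had a median log2 fold change of 0.58, beside 0.54 over all 232 genes tested there. Scaled to total counts, the median of all genes in cluster 4 was −0.25, and 2 of the 3 members were positive. The signs in cluster 4 thus say little about the members. In no type or cluster did a member pass as lower. Over all genes tested, 6.36% were called higher in alveolar macrophages, and 0.604%, 0.937%, 0.243% and 4.16% in clusters 0, 1, 2 and 5. The pairs share mice, and the clusters are parts of the structural cells, so these counts are not of separate cases. The filter on low counts asks for a minimum level in as many mice as the smaller group has, and 2 of the 70 and 8 of the 45 pairs would not have met it with their B6→B6 mice alone.

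**Figure D2:**
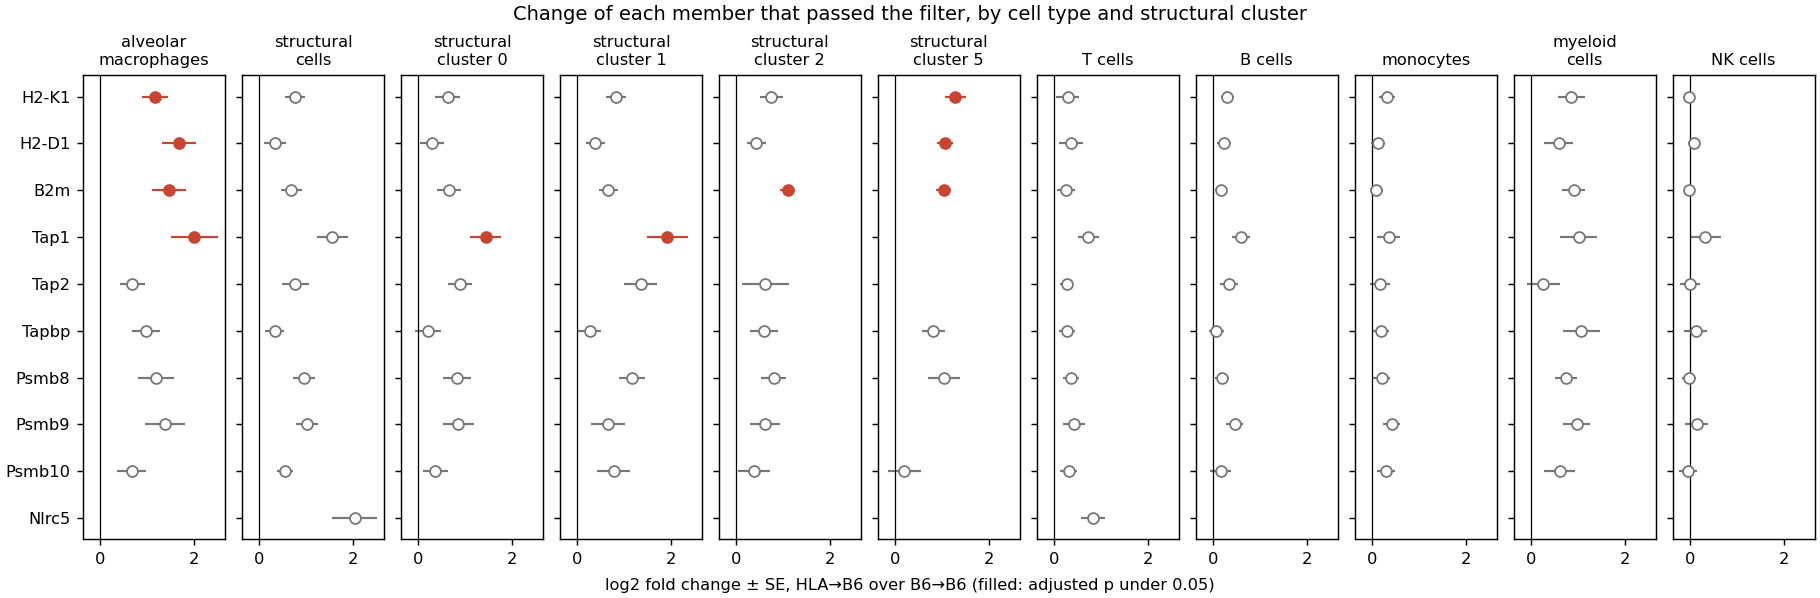
Log2 fold change of each member, HLA→B6 over B6→B6, with its SE (x axis), for 7 cell types and 4 structural clusters, with filled points for adjusted p under 0.05 in edgeR. Filled points appear in alveolar macrophages (4 members) and structural clusters 0, 1, 2 and 5 (1, 1, 1 and 3 members), and the values in natural killer cells lie near 0.

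The largest set of calls was in the cells labelled alveolar macrophages, where 4 of 9 tested members rose against a background of 6.36% of 5798 genes called higher (12.3% called in either direction). H2-D1 had 2098, 3188, 2413, 1362 and 1112 CPM in the 5 B6→B6 mice (replicates in order, here and below) and 5061, 10502 and 3962 in the 3 HLA→B6 mice. Every HLA→B6 mouse was above every B6→B6 mouse, with replicate 2 far above the other 2. The log2 fold change was 1.68 ± 0.37 (SE; edgeR adjusted p = 0.0184). B2m, the light chain that pairs with the heavy chains, was at 3295, 5772, 3578, 2398 and 1826 in B6→B6 and at 7457, 13832 and 6697 in HLA→B6. The groups did not overlap (8.54% of 7715 genes with a mean of at least 10 UMIs had every HLA→B6 mouse on top), and the log2 fold change was 1.47 ± 0.35 (edgeR adjusted p = 0.0237). H2-K1 ranged from 805 to 1708 in B6→B6 and from 1786 to 3144 in HLA→B6 (log2 fold change 1.17 ± 0.27, edgeR adjusted p = 0.0214). Tap1 was at 14.5 to 70.7 in B6→B6 and at 90.9, 214 and 75.0 in HLA→B6 (2.01 ± 0.50 on the log2 scale, edgeR adjusted p = 0.0274). The groups lay apart here too, though the lowest HLA→B6 value rests on 24 UMIs and the highest B6→B6 value on 33. In CPM of all UMIs, without TMM, these 2 values were 67.1 and 68.9 and the groups overlapped, as they did for H2-K1 (lowest HLA→B6 value 1619, highest B6→B6 value 1664), whereas H2-D1 and B2m stayed apart. Tap1 reached the level of the filter, needed in 3 mice, in 2 of 5 B6→B6 mice and in all 3 HLA→B6 mice. It would thus not have been tested with its B6→B6 mice alone.

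The other 5 tested members had positive values and missed the threshold. Tapbp had a log2 fold change of 0.98 ± 0.29 (edgeR adjusted p = 0.0507), Psmb9 of 1.37 ± 0.42 (edgeR adjusted p = 0.0562), Psmb8 of 1.18 ± 0.38 (edgeR adjusted p = 0.0629), Tap2 of 0.69 and Psmb10 of 0.67. Nlrc5 did not pass the filter, with 2 to 11 UMIs in a B6→B6 mouse. The median over the 9 members was 1.18, beside −0.03 over all genes tested, and it is a median of members that passed a filter on low counts. DESeq2 called 7 of the 9 (6.38% of genes called higher). Beside these results, resident markers were lower in each HLA→B6 mouse (above), and replicate 2 of that group had a median of 7144 UMIs per cell in this type. Neutrophil markers summed to 36.3 to 148 CPM in B6→B6 and to 523, 95.02 and 235 in HLA→B6, and monocyte markers to 60.3 to 439 and to 405, 590 and 322. Epcam and Cdh1 summed to 33.4 to 85.5 in B6→B6 and to 9.24 or less in HLA→B6, plasma cell markers to 321 to 425 and 222 to 299, and red cell genes to 347 to 15389 and 0.711 to 424. Without HLA→B6 replicate 2 no member passed in edgeR (5 at an unadjusted p under 0.05), the log2 fold change of H2-D1 being 1.17 and that of B2m 1.08. That fit called 94 of 6165 genes higher, and 1091 had an unadjusted p under 0.05 in either direction. H2-D1 alone passed when replicate 1 or replicate 4 of B6→B6 was left out (203 of 5711 and 145 of 5551 genes called higher). In macrophages with at least 1 UMI of a resident marker, chosen after the data were seen, 6 members passed (5.91% of genes called higher) and the log2 fold change of H2-D1 was 2.01 and that of B2m 1.82. This rule kept 101 of 159, 140 of 284, 155 of 190, 669 of 685 and 101 of 105 cells in B6→B6. In HLA→B6 it kept 254 of 427, 140 of 514 and 56 of 130. Deeper cells meet it more easily, and those kept in HLA→B6 replicate 2 had a median of 8298 UMIs. Without the cells in doubt for a shared barcode 8 members passed, and calls over all genes rose too, from 369 of 5798 to 529 of 5454 called higher. Scaling to total counts moved the median of all genes from −0.03 to −0.26 and the calls from 369 higher and 343 lower to 223 and 690, and the same 4 members were called (H2-K1 at 0.93 and H2-D1 at 1.43 on the log2 scale). The part of these markers in the results was not tested.

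**Figure D3:**
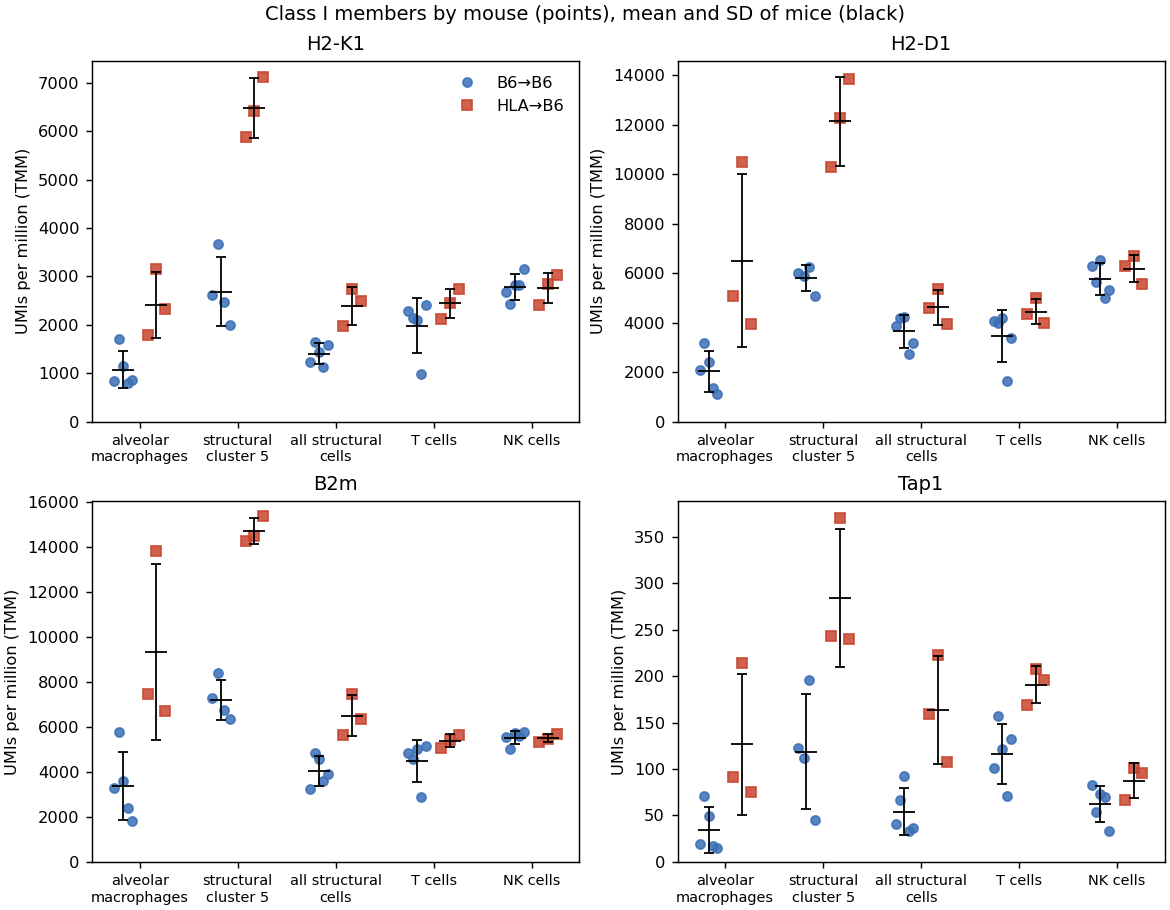
Level of H2-K1, H2-D1, B2m and Tap1 in CPM after TMM (y axes from 0) in 5 groups of cells (x axis), with a point for each mouse (circles B6→B6, squares HLA→B6) and the mean and SD of the mice in black. On this scale every HLA→B6 mouse lies above every B6→B6 mouse in alveolar macrophages and structural cluster 5 (in CPM of all UMIs H2-K1 and Tap1 overlap in the macrophages), and in natural killer cells the groups overlap.

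Structural cluster 5, labelled Vcam1+ endothelial cells, gave the other set of calls. The cluster had 14 to 55 cells in 4 B6→B6 mice and 14 to 88 in the HLA→B6 mice, and replicate 5 of B6→B6 fell out with 6. Its endothelial markers summed to 3708, 2578, 5002 and 4453 CPM in B6→B6 and to 5855, 5384 and 6765 in HLA→B6, so that they too were higher in each HLA→B6 mouse. Leukocyte markers summed to 0, 0, 24.05 and 91.8 in B6→B6 and to 93.1, 213 and 90.2 in HLA→B6, smooth muscle or pericyte markers to 33.9 to 909 and 35.4 to 90.2, and Epcam and Cdh1 were at 0. The part of these markers in the results below was not tested. B2m was at 7284, 8412, 6769 and 6344 CPM in the 4 B6→B6 mice and at 14284, 14508 and 15377 in HLA→B6. All 3 HLA→B6 mice were close to each other and apart from the rest, with a log2 fold change of 1.04 ± 0.16 (edgeR adjusted p = 0.00311). H2-K1 was at 2612, 3677, 2465 and 1996 in B6→B6 and at 5891, 6420 and 7128 in HLA→B6 (log2 fold change 1.29 ± 0.22, edgeR adjusted p = 0.00332). H2-D1 was at 5079 to 6260 in B6→B6 and at 10276, 12285 and 13855 in HLA→B6 (log2 fold change 1.06 ± 0.17, edgeR adjusted p = 0.00328). Both heavy chains and their light chain thus rose by a like size, and for all 3 the groups lay apart (10.4% of 994 genes with a mean of at least 10 UMIs had every HLA→B6 mouse on top).

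These 3 were called of 6 members tested in cluster 5, against 4.16% of 721 genes called higher. Of the other 3, Psmb8 had a log2 fold change of 1.05 ± 0.34 (edgeR adjusted p = 0.0670), Tapbp of 0.82 ± 0.25 (edgeR adjusted p = 0.0512) and Psmb10 of 0.20. Psmb8 reached the level of the filter, needed in 3 mice, in 2 B6→B6 mice and in all 3 HLA→B6 mice. Psmb10 reached it in 2 B6→B6 mice and 1 HLA→B6 mouse. Neither would have been tested there with its B6→B6 mice alone, which bears on the positive value of Psmb8. Tap1, Tap2, Psmb9 and Nlrc5 did not pass the filter, and for Nlrc5 the counts were 1, 0, 0 and 0 UMIs in B6→B6 and 9, 2 and 3 in HLA→B6. H2-K1, H2-D1 and B2m were called when any one of the 7 mice was left out. The same 3 were called by DESeq2 against 3.47% of genes called higher. They were not called when genes of low counts were kept in the fit. The authors' clusters were made from all genes, the members included, and the cells of a cluster were taken as labelled.

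In the other structural clusters single members were called. In cluster 2, of endothelial marker genes, B2m was at 7902 to 12022 in B6→B6 and at 21434, 25811 and 19936 in HLA→B6 (log2 fold change 1.10 ± 0.16, edgeR adjusted p = 0.00553). No other member passed there (1 of 8 tested, beside 0.243% of 1643 genes called higher), and H2-D1 had a log2 fold change of 0.43. Tap1 was called in cluster 0, where it was at 83.6, 254, 185, 43.7 and 136 in B6→B6 and at 316, 441 and 345 in HLA→B6 (1.44 ± 0.33 on the log2 scale, edgeR adjusted p = 0.0414; 1 of 9 members, beside 0.604% of 3645 genes). The B6→B6 values rest on 2 to 58 UMIs. Tap1 was also called in cluster 1, with 0 to 36 UMIs in a B6→B6 mouse and 12 to 40 in HLA→B6 (1.92 ± 0.44, edgeR adjusted p = 0.0404; 1 of 9 members, beside 0.937% of 2348 genes). There Tap1 reached the level of the filter, 90.2 CPM of all UMIs, in 0 of 5 B6→B6 mice and in all 3 HLA→B6 mice, so it was tested only through the group where it is high. Without the cells in doubt for a shared barcode Tap1 was called in neither cluster (edgeR adjusted p = 0.0505 in cluster 0 and 0.103 in cluster 1). DESeq2 also called Tap1 in neither, and called H2-K1 and B2m in cluster 1 (0.468% of genes called higher). B2m in cluster 2 was called under each of its 18 alternatives, Tap1 in cluster 0 under 10 of 18 and in cluster 1 under 6 of the 15 in which it was tested. In cluster 3, labelled fibroblasts and smooth muscle cells, all 7 tested members were positive with unadjusted p under 0.05 and none passed in edgeR (H2-K1 1.93 ± 0.47 on the log2 scale, edgeR adjusted p = 0.114; 0.159% of 1260 genes called higher). Of the 1260 genes, 164 had an unadjusted p under 0.05 in either direction. Psmb10 reached the level of the filter in 0 of 3 B6→B6 mice and Tap2 in 1, and both did in all 3 HLA→B6 mice. Neither would have been tested there with its B6→B6 mice alone, which bears on their positive sign. DESeq2 called H2-K1 and B2m there (1.11% called higher), with 3 mice in each group and 15 to 180 cells in a mouse.

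Over all structural cells together no member passed in edgeR, while 8 of 10 had an unadjusted p under 0.05, all higher, and DESeq2 called 5 (H2-K1, B2m, Tap1, Psmb8 and Psmb9). The background was 0.419% of 8109 genes called higher in edgeR and 0.691% in DESeq2. At an unadjusted p under 0.05 in edgeR were 676 of the 8109 genes, in either direction. Tap1 was at 40.7, 66.8, 92.7, 33.1 and 36.2 CPM in B6→B6 and at 159, 223 and 107 in HLA→B6, with a log2 fold change of 1.56 ± 0.34 (edgeR adjusted p = 0.0703). Nlrc5, the regulator of class I genes, was at 6.26, 17.6, 10.8, 2.36 and 7.24 in B6→B6, from 1 to 17 UMIs, and at 27.4, 42.4 and 17.9 in HLA→B6 (2.04 ± 0.48, edgeR adjusted p = 0.0994). It reached the level of the filter, needed in 3 mice, in 2 B6→B6 and 2 HLA→B6 mice. With its B6→B6 mice alone Nlrc5 would not have been tested. The groups did not overlap for Tap1 or Nlrc5, nor for 5 other members, and 3.42% of 8340 genes with a mean of at least 10 UMIs had every HLA→B6 mouse on top. In CPM of all UMIs, without TMM, the groups overlapped for all 7, with HLA→B6 replicate 3 below the highest B6→B6 mouse (Tap1 63.8 against 127). The median log2 fold change of the 10 members was 0.77, beside −0.01 over all genes. H2-D1 had the lowest values, with Tapbp (0.34 ± 0.23 and 0.34 ± 0.21).

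Red cell genes took 6.53% to 67.0% of the UMIs of structural cells, with the highest shares in replicate 5 of B6→B6 and replicate 3 of HLA→B6 (52.5%). Without the clusters labelled red blood cells, T cells and B cells and the epithelial cluster 7, which was led by platelet genes, Tap1 (log2 fold change 1.61, edgeR adjusted p = 0.0384) and Nlrc5 (2.11, edgeR adjusted p = 0.0371) passed (0.692% of genes called higher). Scaled to total counts, no member passed and the edgeR adjusted p of Tap1 was 0.516. Since clusters and cell numbers differ between mice, a sum over all structural cells mixes their levels, and more cells of a high type and more RNA per cell cannot be told apart in it.

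T cells and B cells showed small values. In T cells Tap1 was at 101, 157, 121, 70.5 and 132 in B6→B6 and at 169, 207 and 196 in HLA→B6 (log2 fold change 0.73 ± 0.22, edgeR adjusted p = 0.339), Nlrc5 had a log2 fold change of 0.83 ± 0.26 (edgeR adjusted p = 0.351), and none of the 10 members passed in edgeR or DESeq2 (2 at an unadjusted p under 0.05; 0.0698% of 7164 genes called higher in edgeR, 0.349% in DESeq2). Of the 7164 genes, 534 had an unadjusted p under 0.05 in edgeR, in either direction. H2-K1 had 978 CPM in replicate 4 of B6→B6 and from 2107 up to 2406 in the rest of that group. In that mouse the cells of T cell cluster 7 had 192 CPM (of all UMIs) of H2-K1 and 1177 of B2m (95% Poisson intervals 165 to 222 and 1109 to 1248), and those of T cell cluster 1 had 1666 and 4376 (1590 to 1745 and 4252 to 4503), intervals that cover counting error only. In T cell cluster 1 alone, chosen after the data were seen, the log2 fold change of H2-K1 was 0.16 ± 0.14 in place of 0.30 ± 0.24, that of Tap1 was 0.60 ± 0.15 (edgeR adjusted p = 0.145), and no member passed (0.366% of 7106 genes called higher). In B cells the largest value was that of Tap1, 0.61 ± 0.19 (edgeR adjusted p = 0.720), with 0 of 9 members called by edgeR or DESeq2, 3 at an unadjusted p under 0.05, and 0.1% of 6001 genes called higher in edgeR (0.0167% in DESeq2). Of the 6001 genes, 283 had an unadjusted p under 0.05 in edgeR, in either direction.

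Natural killer cells carried high levels of both heavy chains with no difference beyond the spread. H2-K1 was 2780 ± 267 (SD, n = 5) in B6→B6 and 2759 ± 317 (n = 3) in HLA→B6, and B2m 5531 ± 310 and 5497 ± 175. The 9 tested members had a median log2 fold change of 0.01, with 5 above 0, and the values of H2-K1 and B2m were −0.01 ± 0.14 and −0.01 ± 0.12. No member was called by edgeR or DESeq2 and none had an unadjusted p under 0.05. None of 2987 genes was called, and 97 had an unadjusted p under 0.05 in edgeR. In monocytes the median was 0.21 and 1 member, Psmb9 (0.42 ± 0.17), had an unadjusted p under 0.05, and neither tool called any (0.023% of 4352 genes called in edgeR, none higher, and 0.138% higher in DESeq2). Of the 4352 genes, 219 had an unadjusted p under 0.05 in edgeR. Myeloid cells had a median of 0.87 and 6 of 9 members at an unadjusted p under 0.05, among them B2m, which was at 3607, 4332, 4029, 1868 and 4126 in B6→B6 and at 6249, 6848 and 7246 in HLA→B6 (log2 fold change 0.92 ± 0.24, edgeR adjusted p = 0.274). The groups did not overlap (3.02% of genes with a mean of at least 10 UMIs had every HLA→B6 mouse on top). Neither tool called a member, with none of 4395 genes called in edgeR and 0.501% called higher in DESeq2. Of the 4395 genes, 215 had an unadjusted p under 0.05 in edgeR, in either direction. Among leukocytes, with 2 HLA→B6 mice, 5 members could be tested and none was called by either tool, with 1 at an unadjusted p under 0.05 (H2-K1, 0.91 ± 0.28) and none of 913 genes called. Of the 913 genes, 47 had an unadjusted p under 0.05 in edgeR.

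Whether the members changed more in structural cells than in other cells was tested as the difference of the log2 changes with the mouse as a block. Against T cells all members but H2-D1 had a larger change in structural cells (Nlrc5 by 1.28 ± 0.47, Tap1 by 0.84 ± 0.35), and against B cells all 10 (Tap1 by 1.01 ± 0.31, Psmb8 by 0.80 ± 0.27). None passed in edgeR (2 and 3 at an unadjusted p under 0.05; DESeq2 was not run for this test), with none of 9283 and 0.012% of 8341 genes called. At an unadjusted p under 0.05 were 551 of the 9283 and 452 of the 8341 genes. With T cell cluster 1 alone in place of all T cells, all 10 members had a larger change in structural cells and 6 had an unadjusted p under 0.05 (Nlrc5, Psmb9, Tap1, H2-K1, B2m and Psmb8), and none passed in edgeR (lowest adjusted p 0.436; 0.195% of 9245 genes called). Of the 9245 genes, 697 had an unadjusted p under 0.05 in that fit. Against alveolar macrophages H2-D1 had the largest difference, −1.23 ± 0.33 (edgeR adjusted p = 0.0839), so that its change was lower in structural cells, and no member passed (1 at an unadjusted p under 0.05; 1.32% of 8656 genes called). Of the 8656 genes, 1458 had an unadjusted p under 0.05. No difference between the cell types passed the threshold for any member in these fits.

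The immunoproteasome replaces the catalytic subunits β5, β1 and β2 (Psmb5, Psmb6 and Psmb7) by β5i, β1i and β2i (Psmb8, Psmb9 and Psmb10), so each pair was read as a share within the cells of a mouse, which does not depend on the scaling. Psmb9 made up 28.9%, 38.9%, 47.3%, 37.8% and 25.6% of its pair's UMIs in structural cells of the B6→B6 mice and 55.2%, 54.7% and 50.6% in HLA→B6. The 3 HLA→B6 shares were above all 5 others (35.7% ± 8.6 and 53.5% ± 2.5, SD, n = 5 and 3; exact permutation p = 0.0536, Benjamini-Hochberg adjusted 0.241). Psmb10 was 62.6% ± 2.1 and 70.2% ± 3.7, again without overlap (exact permutation p = 0.0179, adjusted 0.241). Psmb8 was 59.3% ± 8.2 and 74.1% ± 5.4, with 1 B6→B6 mouse (68.2%) above the lowest HLA→B6 mouse (68.0%; exact permutation p = 0.0536, adjusted 0.241). All tests were two-sided. Of the 45 shares tested over types and clusters, 41 were higher in HLA→B6 and none passed after adjustment. For 10 of the 45 every HLA→B6 mouse was above every B6→B6 mouse. Outside structural cells these were the Psmb9 shares of B cells, monocytes and myeloid cells, so such separation was not particular to structural cells. The others were Psmb9 and Psmb10 over all structural cells, Psmb8 and Psmb9 in cluster 0, Psmb8 in clusters 1 and 4, and Psmb10 in cluster 3. The clusters are parts of the structural cells, and cluster 4 had 2 mice in each group for this share. With 8 mice the smallest exact p is 0.0179, and at least 17 of the 45 shares would have to reach it to pass.

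**Figure D4:**
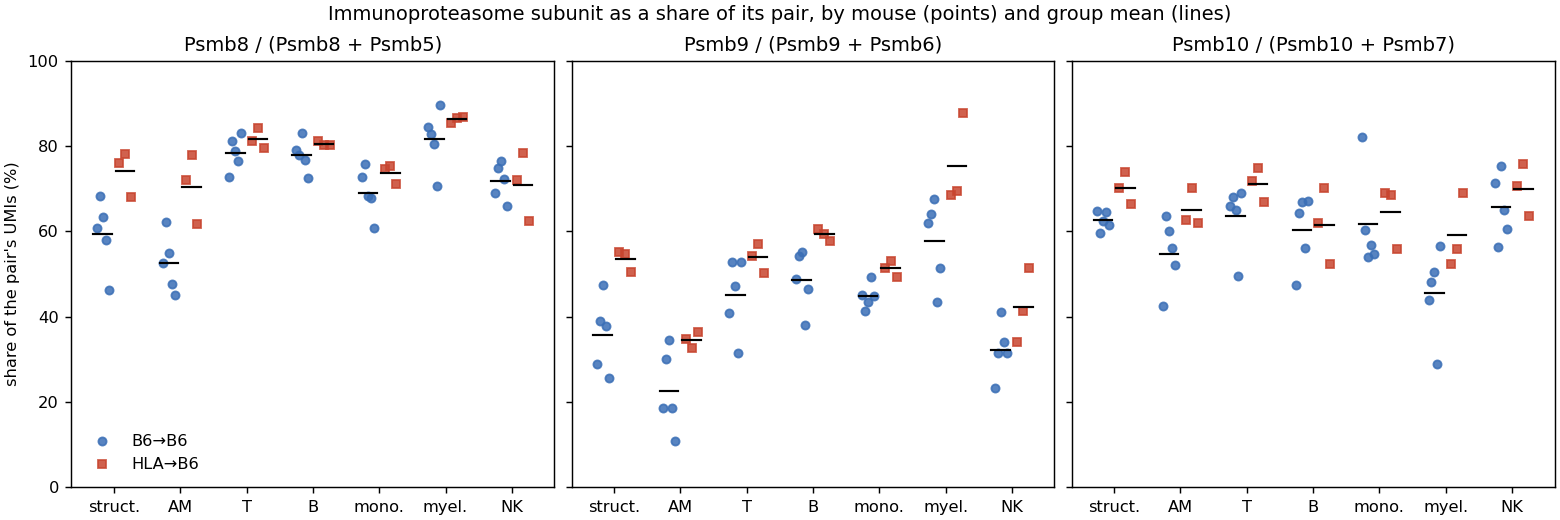
UMIs of Psmb8, Psmb9 and Psmb10 as a percentage of the UMIs of each with its constitutive partner (y axis, 0 to 100%), by mouse (circles B6→B6, squares HLA→B6) with the group mean as a line, in structural cells, alveolar macrophages (AM), T cells, B cells, monocytes, myeloid cells and natural killer (NK) cells. In structural cells the Psmb9 shares of HLA→B6 mice lie between 50.6% and 55.2% and those of B6→B6 mice between 25.6% and 47.3%.

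In each pair the immunoproteasome subunit had the larger log2 fold change in structural cells. Psmb8, Psmb9 and Psmb10 had values of 0.95 ± 0.23, 1.02 ± 0.24 and 0.56 ± 0.17, none past the threshold in edgeR (adjusted p 0.119, 0.0994 and 0.242). Psmb5, Psmb6 and Psmb7 had −0.02 ± 0.16, 0.05 ± 0.16 and 0.06 ± 0.16, and the median of the 11 other subunits of the 20S core was 0.07, with none at an unadjusted p under 0.05. In alveolar macrophages Psmb6 had a log2 fold change of 0.65 ± 0.26 beside 1.37 of Psmb9, so both members of that pair were on average higher. Between cell types the Psmb8 share of B6→B6 mice was lowest in alveolar macrophages (52.5% ± 6.6) and structural cells and highest in myeloid cells (81.7% ± 7.0) among the types with over 4 mice in that group.

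Other genes of the pathway, from lists fixed by function, were read beside the members. Of 7 further class I heavy chains, 6 were tested in alveolar macrophages and 5 rose (H2-Q4, H2-Q6, H2-T22, H2-T23 and H2-M3, by 1.15 to 2.90 on the log2 scale), as did Psme1, a subunit of the proteasome activator PA28 (1.08 ± 0.24) and Irf1, a transcription factor of the interferon response (1.37 ± 0.38). Of the 5798 genes tested there 6.36% were called higher, and 343 genes were called lower. Canx, the gene of the chaperone calnexin, was the only listed gene that fell there (−0.64 ± 0.16, edgeR adjusted p = 0.0283). In cluster 5, 4 of 5 tested heavy chains rose (H2-Q4, H2-Q6, H2-Q7 and H2-T23, by 1.13 to 1.93), and so did Psme2, the other PA28 subunit (2.29-fold, edgeR adjusted p = 0.0224). Of the 721 genes tested in that cluster 4.16% were called higher. In structural cells as a whole H2-Q7 was the 1 listed gene to pass, at 314 ± 59.6 CPM in B6→B6 and 744 ± 173 in HLA→B6 (log2 fold change 1.25 ± 0.22, edgeR adjusted p = 0.0263), and the medians of the heavy chains, the loading and trimming genes and PA28 were 1.01, 0.45 and 0.48. H2-Q7 was also called in cluster 1 (1.29 ± 0.26), and H2-T22 in cluster 2 (1.57 ± 0.26). The shares of all genes called higher were 0.419% in structural cells, 0.937% in cluster 1 and 0.243% in cluster 2. In T cells none of the listed genes passed (4 at an unadjusted p under 0.05, beside 534 of 7164 genes). The H2-Q and H2-T genes and the classical heavy chains are close in sequence, so the split of reads among them is uncertain.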

How the data were processed

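Whole UMI counts per gene and cell were deposited by the authors, who made them with Cell Ranger on mm10 (GRCm38) and named cells with Seurat clusters; they state that free RNA was removed with SoupX, and whether these counts are from before or after that step was not tested. Cells took their mouse from the deposited table of cells, since the numbers in the names of HLA→B6 cells are not those of the samples, and 0 columns of values were left unused. Counts were summed per mouse and cell type or cluster (at least 10 cells), filtered with filterByExpr (minimum count 10), scaled by TMM and compared with edgeR 4.0.16 (R 4.3.3; quasi-likelihood test, Benjamini-Hochberg over all genes of a fit). The SE is the log2 fold change over the root of F. The steps were tested on simulated data. Shares of subunit pairs were compared by an exact permutation test over mice. DESeq2 1.42.0 and Scrublet (expected rate 0.06) served alternatives. The members and lists were chosen with earlier results of these data known. The named genes are the 10 members, Psmb5, Psmb6 and Psmb7, listed genes past the threshold in structural cells, and the 5 genes most like H2-K1, Tap1 and Psmb8 over cell types and clusters; other listed genes that passed elsewhere were named after their values were seen, and 1 gene that these rules name is not reported here. Each mouse is 1 graft and 1 library.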

Additional observations from a re-analysis of the deposited data

Results flagged for a closer look

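Each group of B6→B6 mice was searched for 1 value far from the rest by Dixon's test (the gap to the nearest value over the range), in 102 groups of 4 or 5 mice for members that passed the filter. It picked out 12 values, in CPM, where chance picks out about 1 group in 20, and no cause was tested. In T cells, B6→B6 replicate 4 was low for H2-K1 (978, others 2107 to 2406) and B2m (2886, others 4564 to 5167), the mouse that holds T cell cluster 7. The same mouse was low for H2-D1 in structural cluster 2 (6756, others 10373 to 11373). Replicate 5, with 18 cells in each of the next clusters, stood apart for Psmb8 in cluster 0 (68.1, others 418 to 559) and for Tap2 (919, others 174 to 304) and Psmb10 (744, others 244 to 367) in cluster 2, and was low for Tap1 in monocytes (38.5, others 93.5 to 114). Replicate 3 was high for Tap1 in B cells (142, others 94.5 to 98.9) and for B2m in leukocytes (3614, others 3065 to 3224). Replicate 2 was high for Tapbp in cluster 2 (731, others 433 to 512) and low for B2m in natural killer cells (5000.1, others 5566 to 5761). Replicate 1 was high for Psmb10 in natural killer cells (311, others 234 to 254).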

How the results depend on the processing

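In structural cells the log2 fold changes of the 10 members stayed above 0 in all 199 values computed under the alternatives, and 19 of these passed the threshold. The number of members called there, 0, became 5 with DESeq2, 4 with no filter, 3 with the sets of libraries that share barcodes as a block, 2 without clusters 4, 6, 7 and 10 and 1 with equal cells per mouse, and 0 to 2 with a mouse left out. In the same order, genes called higher there were 56 of 8109, 87 of 16809, 47 of 8109, 53 of 7654 and 1 of 2814. With a mouse left out they were 7 of 7798 to 51 of 8709. Over cell types the count of 4 became 12 with DESeq2, 12 with no filter, 12 with the library sets as a block, 8 without shared barcodes, and 0 to 8 with a mouse left out (of HLA→B6, 0 without replicate 2 and 8 without replicate 3; of B6→B6, 1, 8 and 2 without replicates 1, 2 and 4). In alveolar macrophages 4 became 7 with DESeq2, 8 with no filter, 9 with the library sets as a block, 8 without shared barcodes, and 0 to 8 with a mouse left out. In the same order, genes called higher there were 370 of 5798, 617 of 15654, 630 of 5798 and 529 of 5454. With a mouse left out they were 94 of 6165 to 418 of 5715. In structural clusters the count of 6 was 4 to 8 with a mouse left out, and in cluster 5 the count of 3 was 0 with no filter and 3 to 4 with a mouse left out. Cluster 5 had 22 of 11838 genes called higher with no filter, and 16 of 963 to 30 of 967 with a mouse left out. The difference from alveolar macrophages was called for 1 member with no filter, beside 535 of 17366 genes. The differences in subunit shares stayed positive (Psmb8 11.5 to 17.8 percentage points, Psmb9 15.3 to 20.7, Psmb10 5.70 to 9.43) and never passed after adjustment. The cause of these shifts was not tested. With the replicate number as a block 0 members passed in structural cells and 5 in alveolar macrophages (8 of 8109 and 157 of 5798 genes called higher). The correlations of same-numbered deviations were 0.13, 0.06 and −0.17 in structural cells (numbers 1, 2 and 3). They were −0.06, 0.32 and −0.25 in alveolar macrophages and 0.09, 0.18 and −0.22 in T cells. The signs were mixed, so these values do not show that the numbers pair the mice. Counts of 17 UMIs or fewer lie behind each B6→B6 value of Nlrc5 in structural cells. The values for macrophages with a marker UMI, for T cell cluster 1 alone, for robust dispersion, and for alveolar macrophages and cluster 5 by themselves were added after the data were seen.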
